A study of Saccharomyces cerevisiae with 44 samples.

Results

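The libraries described here measured the RNA that came through a Yra1 pulldown from budding yeast (Saccharomyces cerevisiae) in which no protein carried the protein A (PrA) tag, so that nothing was meant to be held in the first of the 2 capture steps. This untagged background was compared between cells lacking THO2 (tho2Δ) and wild type cells. They are 6 of the 30 libraries of the series, 3 of tho2Δ and 3 of wild type, found by the strain, tag and material that their labels give. The tho2Δ strain carried tho2∆::KanMX and the other strain an intact THO2 gene. Both were haploid MATa cells of the BY4741/2 background with his3Δ1, leu2Δ0, lys2Δ0, met15Δ0 and ura3Δ0, and both, like the other strains of the series, carried SNAPf-YRA1 in place of YRA1. Cells were grown in rich medium at 30 °C and ground frozen, and the cleared lysate was treated with 0.2% formaldehyde before IgG beads, protease elution and anti-Yra1 beads. Total RNA from 7.5% of the same lysates was sequenced too. Libraries were 3′ tags with unique molecular identifiers, and the 6 pulldown libraries ran on the AVITI sequencer only. Of the total RNA libraries of these strains, tho2Δ replicate 3 ran on AVITI only. The others combined AVITI and NextSeq runs, and the part of the sequencer was not tested.

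Tho2 is the largest subunit of the THO complex, which travels with RNA polymerase II and, together with the helicase Sub2 and the adaptor Yra1, forms the TREX complex. Yra1 hands finished mRNA to the export receptor Mex67, and loss of THO is known for slowed growth, weak export and genome instability. A strain without a tag reports what comes through without a PrA bait, and it serves as the baseline when a tagged pulldown is scored. Yra1 was present in both strains, so RNA held by anti-Yra1 beads through Yra1 cannot be told apart from RNA that stuck to beads. The question here was whether that baseline was itself the same in both genotypes. Genes that yeast turns up when growth slows (heat shock, trehalose, alternative carbon and respiration genes, many of them driven by Msn2 and Msn4 through the stress response element) and genes that it turns down (ribosomal proteins) are the usual axes along which slow and fast growing cultures differ.

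Depth was low and differed between the genotypes. Gene counts were 38378, 23769 and 32161 in tho2Δ pulldowns, against 61858, 71037 and 44389 in wild type pulldowns (means in a ratio of 0.532, two-sided exact permutation p = 0.1, the smallest that 3 against 3 allows). A single read was thus worth 27.3 to 41.2 CPM (reads per 1000000 of the library size after edgeR's TMM scaling) in tho2Δ and 19.8 to 28.9 CPM in wild type. Reads outside annotated genes were 52.7% ± 0.857 of those counted in tho2Δ and 49.4% ± 1.94 in wild type (SD, n = 3 each). THO2 had 0 counts in all 6 pulldowns, so it could check the genotype only in total RNA, with 0 counts in the 3 tho2Δ libraries and 222 in the 3 wild type libraries together. Of 7 MATa-specific genes all had counts in the pulldowns, and the 5 MATalpha-specific genes had 3 counts in tho2Δ and 1 in wild type. LEU2, LYS2, MET17 and URA3 were at 0 in every library, while HIS3, which his3Δ1 removes in part, had 10 counts in tho2Δ and 26 in wild type. The tho2Δ libraries 1 and 2 lay close together: a chi-square test of their counts gave p = 0.141 over 1062 genes with at least 10 counts in the pair and p = 0.00298 over 2025 genes with at least 5, and the other pairs of pulldowns of 1 genotype gave p of at most 1.651e-05. They were kept as 2 replicates, since they differed in the wider set, and counts of calls with the pair as 1 library are given beside the first count. The labels call the replicates biological. In the pulldown comparison edgeR's p-values rest on the spread between replicates over all 15 pulldown libraries of the series, tagged strains included. Depth, the share of reads outside genes and genotype moved together, and the part of depth in the results was not tested.

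The pulldown held messages from 5457 of 6461 genes, and 2997 passed the expression filter of the edgeR fit over the 15 pulldown libraries of the series. A gene was called at a Benjamini-Hochberg adjusted p of edgeR's quasi-likelihood test under 0.05 and a log2 fold change, tho2Δ over wild type, beyond 1 in either direction. In tho2Δ 24 genes rose (0.801% of those tested) and 30 fell (1.0%). The 6 libraries alone had thin data for most of the rest, with a mean under 3 counts for 1103 of the 2997 genes and at least 10 counts for 641, where 31 of the 54 calls lie. The median SE of a log2 fold change was 0.36 among those 641 genes and 0.74 below that level. The balance of calls turned on the scaling: median-ratio factors gave 30 higher and 20 lower, plain total counts 52 higher and 8 lower, and DESeq2's Wald test 25 higher and 18 lower. The median of all genes moved with it (−0.15 under TMM, −0.06 under median-ratio factors and DESeq2, 0.22 under total counts), so the direction of small changes depends on the scaling and gene groups are set against this median below. Leaving out single libraries moved the counts as well, to 11 higher and 11 lower without tho2Δ replicate 1, 14 and 15 without tho2Δ replicate 2, 21 and 12 without tho2Δ replicate 3, 16 and 28 without wild type replicate 1, 14 and 25 without wild type replicate 2, and 13 and 33 without wild type replicate 3. With tho2Δ libraries 1 and 2 summed into 1 library, 21 rose and 14 fell, all of them among the 54.

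Among the genes that rose, HXK1, a hexokinase that is used when glucose runs low, had 655, 618 and 737 CPM in tho2Δ, against 40.9, 158 and 28.9 CPM in wild type. Every tho2Δ library stood far above every wild type library, by 3.03 ± 0.44 on the log2 scale (SE, edgeR adjusted p = 2e-06). HSP26, a small heat shock protein that holds unfolded proteins, had 956, 1154 and 952 CPM in tho2Δ, against 81.7, 158 and 318 CPM in wild type (log2 fold change 2.54 ± 0.36, edgeR adjusted p = 1.957e-06). IFH1, a coactivator of ribosomal protein genes, had 983, 660 and 829 CPM in tho2Δ, against 204, 139 and 86.6 CPM in wild type (2.49 ± 0.36, edgeR adjusted p = 1.957e-06). Of the 54 called genes these 3 kept their call under all 14 alternatives run, the test against the fold threshold included. NCA3, PUT1 and TDH1 also kept it in all 6 fits that left out 1 library. NCA3, which is linked to the expression of mitochondrial ATP synthase subunits, had 491, 618 and 246 CPM in tho2Δ, against 123, 59.4 and 86.6 CPM in wild type. TDH1, a glyceraldehyde-3-phosphate dehydrogenase with a near-identical copy, had 1857, 1360 and 1750 CPM in tho2Δ, against 633, 811 and 751 CPM in wild type.

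**Figure D1:**
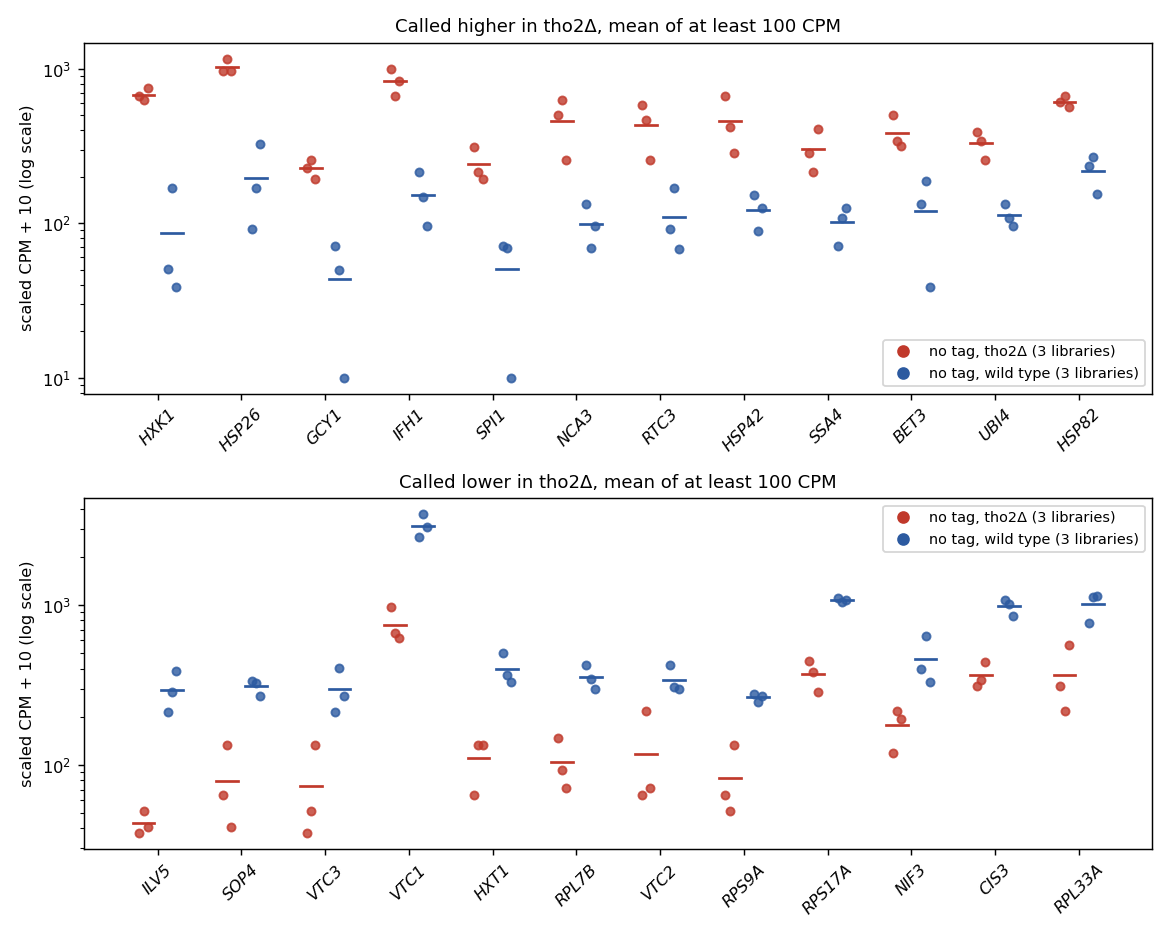
CPM plus 10 (log scale) in each no-tag pulldown library for the 12 called coding genes with the largest rise (top) and the 12 with the largest fall (bottom) among those with a mean of at least 100 CPM; points are libraries, lines are means of 3, tho2Δ left of wild type for each gene. The rule that chose these genes required that no tho2Δ point overlap the wild type points of the same gene. HXK1 spans 618 to 737 CPM in tho2Δ and 28.9 to 158 CPM in wild type.

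Several of the steepest rises came from genes with almost no reads in wild type, and their size was set by counting. PUT1, the mitochondrial proline oxidase that begins proline breakdown, had 7, 5 and 4 counts in tho2Δ and 0 in every wild type library, which makes it at least 7.66-fold higher with the wild type sum set to a floor of 3 counts. CTT1, the cytosolic catalase, had 1, 4 and 2 counts against 0, at least 3.35-fold higher on the same floor, and its call was kept by only 2 of the 14 alternatives. TPS2, which finishes trehalose synthesis, had 7, 4 and 4 counts in tho2Δ and 0, 1 and 0 in wild type (ratio of scaled counts 21.5, exact 95% counting interval 3.31 to 906). DCS2, a stress-induced relative of the scavenger decapping enzyme, had 8, 6 and 3 counts in tho2Δ and 0, 0 and 1 in wild type (ratio 24.4, interval 3.82 to 1020). SOL4, a 6-phosphogluconolactonase, had 5, 4 and 7 counts in tho2Δ and 0, 0 and 2 in wild type (ratio 11.5, interval 2.7 to 103). The intervals cover counting error only, and these are genes for which a few reads decided the call.

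As a group, the general stress response genes stood highest among all lists with more than 5 tested members. Of 37 listed genes 29 were tested, 6 rose (CTT1, DCS2, HXK1, SOL4, SPI1 and TPS2) and 0 fell, against a background of 0.801% and 1.0% of all genes. Their median log2 fold change was 0.92, which is 1.07 above the median of all genes, and 1.07 to 1.09 above it under the other 3 scalings. Under median-ratio factors, total counts and DESeq2 the number that rose was 6, 9 and 4. In 13 of the 29 every tho2Δ library lay above every wild type library, as it did for 5.67% of all genes tested, and in 0 the reverse. TPS1, trehalose-6-phosphate synthase, averaged 666 CPM in tho2Δ and 352 CPM in wild type without a call (0.92 ± 0.32, edgeR adjusted p = 0.132), and GRX1, a glutaredoxin, averaged 1047 CPM in tho2Δ and 696 CPM in wild type (0.58 ± 0.28, edgeR adjusted p = 0.353). The list took 0.612%, 0.698% and 0.594% of gene counts in tho2Δ pulldowns, against 0.188%, 0.246% and 0.214% in wild type pulldowns, a ratio of 2.94 (two-sided exact permutation p = 0.1, 0.207 adjusted over the 31 lists). That p is the smallest possible here, and 15 of the 31 lists reached it in the pulldown. In total RNA the same list took 0.623% to 0.648% in tho2Δ and 0.206% to 0.235% in wild type.

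The upstream regions of these genes are shown because HSP26, HXK1 and TPS2 are textbook targets of Msn2 and Msn4, which bind the stress response element, AGGGG on either strand. Windows of 300 bases, from 500 to 201 bases before the start codon, were read from the R64 genome. An element was present in 15 of the 23 called higher genes that have such a window (65.2%), in 687 of 2863 tested genes, and in 22.4% of all 5989 nuclear coding genes. At least 2 elements were present in 8 of the 23 (34.8%), against 4.54% of tested genes. DCS2 and SOL4 had none in this window, and CTT1 had 2. A match describes letters only. HSP26 (chrII:381530-381829, plus strand), HXK1 (chrVI:255250-255549, minus strand) and TPS2 (chrIV:593393-593692, plus strand) are printed 5′ to 3′ on the strand of the gene with the elements in capitals.
HSP26: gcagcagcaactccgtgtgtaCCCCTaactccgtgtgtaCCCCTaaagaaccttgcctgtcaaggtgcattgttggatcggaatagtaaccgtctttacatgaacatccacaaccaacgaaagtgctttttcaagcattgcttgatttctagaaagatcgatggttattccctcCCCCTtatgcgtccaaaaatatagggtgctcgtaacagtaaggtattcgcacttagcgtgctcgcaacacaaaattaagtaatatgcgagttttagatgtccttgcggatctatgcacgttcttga
HXK1: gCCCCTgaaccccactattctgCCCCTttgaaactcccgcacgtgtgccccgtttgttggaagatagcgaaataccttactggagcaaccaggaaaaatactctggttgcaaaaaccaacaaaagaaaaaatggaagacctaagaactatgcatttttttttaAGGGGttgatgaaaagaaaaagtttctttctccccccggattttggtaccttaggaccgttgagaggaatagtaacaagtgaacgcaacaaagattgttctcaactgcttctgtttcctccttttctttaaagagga
TPS2: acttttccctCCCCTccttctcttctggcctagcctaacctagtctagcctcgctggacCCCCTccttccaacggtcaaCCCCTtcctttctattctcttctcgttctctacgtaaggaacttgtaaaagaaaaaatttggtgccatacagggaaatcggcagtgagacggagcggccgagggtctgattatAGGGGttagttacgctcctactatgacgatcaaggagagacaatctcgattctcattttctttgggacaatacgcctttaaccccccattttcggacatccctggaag
HSP26 and HXK1 had 3 elements each and TPS2 had 4.

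Of 34 listed and tested heat shock proteins and chaperones 4 rose (HSP26, HSP42, SSA4 and HSP82) and 0 fell, against 0.801% and 1.0% of all genes, while the list median of 0.06 was 0.21 above that of all genes. HSP42, the other small heat shock protein, had 655, 412 and 276 CPM in tho2Δ, against 143, 79.1 and 116 CPM in wild type. SSA4, the stress-induced Hsp70, had 273, 206 and 399 CPM in tho2Δ, against 61.3, 98.9 and 116 CPM in wild type (1.73 ± 0.50, edgeR adjusted p = 0.0395). HSP82, the inducible Hsp90 with a near-identical copy, had 601, 660 and 553 CPM in tho2Δ, against 225, 257 and 144 CPM in wild type (1.48 ± 0.35, edgeR adjusted p = 0.00861). The other 30 did not pass, and their log2 fold changes lay on both sides of 0. HSP104, the disaggregase, was at 0.81 ± 0.41 (edgeR adjusted p = 0.387), and of the other Hsp70 genes of the SSA family SSA1 was at 0.51, SSA2 at −1.12 and SSA3 at −0.25. HSC82, the other Hsp90, averaged 625 CPM in tho2Δ and 929 CPM in wild type (−0.55 ± 0.29). SSB1 and SSB2, the Hsp70 proteins that sit on translating ribosomes, had log2 fold changes of −0.78 and −0.69 without a call. Every tho2Δ library lay below every wild type library for both, as for 12.1% of all genes tested. The call of SSA4 was lost in 5 of the 6 fits that left out a library, HSP42 in 5, and HSP82 in 1, the one without wild type replicate 3.

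The nuclear-encoded oxidative phosphorylation genes lay above the median of all genes without a call. Of 22 tested genes of this list, 18 had a log2 fold change above 0 and the median was 0.65, 0.79 to 0.81 above all genes under the 4 scalings, but 0 passed the thresholds in either direction (background 0.801% and 1.0%). ATP7, a subunit of the ATP synthase stalk, averaged 707 CPM in tho2Δ and 339 CPM in wild type (1.07 ± 0.32, edgeR adjusted p = 0.0549). COR1, a core subunit of the cytochrome bc1 complex, averaged 379 CPM in tho2Δ and 157 CPM in wild type (1.35 ± 0.43, edgeR adjusted p = 0.077). In both genes no tho2Δ library overlapped a wild type library, as in 8 of the 22, against 5.67% of all genes tested. The list took 0.790%, 0.757% and 0.728% of gene counts in tho2Δ, against 0.338%, 0.386% and 0.379% in wild type. Outside this list, PET9, the main ADP/ATP carrier of the inner membrane, had 601, 989 and 829 CPM in tho2Δ, against 245, 396 and 260 CPM in wild type (1.38 ± 0.32, edgeR adjusted p = 0.00794). MDH1, the malate dehydrogenase of the citric acid cycle, had 546, 948 and 737 CPM in tho2Δ, against 409, 277 and 202 CPM in wild type (1.26 ± 0.33, edgeR adjusted p = 0.0193). The call of PET9 was kept in 4 of the 6 fits that left out a library, and that of MDH1 in 2.

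Of the 19 mitochondrially encoded genes 1 was tested and 0 were called. Together they held 0.112%, 0.114% and 0.0746% of gene counts in tho2Δ, against 0.0437%, 0.0338% and 0.0383% in wild type (two-sided exact permutation p = 0.1, 0.207 adjusted over the 31 lists, as for 15 of them), and 1.04% to 1.09% of gene counts in tho2Δ total RNA and 0.486% to 0.649% in wild type total RNA. 21S_RRNA, the large mitochondrial ribosomal RNA, which is not in that list, had 3986, 3050 and 3592 CPM in tho2Δ, against 1920, 1484 and 1559 CPM in wild type (1.10 ± 0.25, edgeR adjusted p = 0.00465). The authors removed ribosomal RNA reads before counting, and the study's methods do not say whether this RNA was among the sequences removed.

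Ribosomal protein genes took the largest share of the 31 lists and made up 14 of the 30 genes that fell. They held 32.4%, 32.3% and 31.3% of gene counts in tho2Δ pulldowns, against 40.5%, 43.9% and 44.3% in wild type pulldowns, a difference of −10.9 percentage points (two-sided exact permutation p = 0.1, as for 15 of the 31 lists). In total RNA they held 8.12% to 9.88% in tho2Δ and 13.2% to 14.3% in wild type, so the background pulldown was richer in these short and abundant messages than the lysate in both genotypes. Shares must sum to the whole, and all other genes together held 1.19 times as large a share in tho2Δ as in wild type. Of 137 genes 131 were tested, 14 fell and 0 rose, against 1.0% and 0.801% of all genes, and 129 had a log2 fold change below 0 under TMM. The median of all genes under TMM was itself below 0, at −0.15, and 5 of the 131 lay above it. The list median was −0.79, which is 0.64 below that of all genes, and stayed 0.63 to 0.66 below it under the other scalings, although the number called lower fell to 7 under median-ratio factors and DESeq2 and to 2 under total counts. In 92 of the 131 every tho2Δ library lay below every wild type library, as for 12.1% of all genes tested. By subunit, the medians were −0.79 over 80 large subunit genes and −0.82 over 51 small subunit genes.

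Within the ribosomal proteins, the gene with the lowest fold change was RPL7B, with 137, 82.4 and 61.4 CPM in tho2Δ, against 409, 336 and 289 CPM in wild type (−1.85 ± 0.48, edgeR adjusted p = 0.0193), a call that 6 of the 14 alternatives kept. RPS17A had 437, 371 and 276 CPM in tho2Δ, against 1103, 1029 and 1068 CPM in wild type (−1.55 ± 0.32, edgeR adjusted p = 0.00217). RPL19B, among the 10 most abundant genes of the pulldown, had 9665, 8367 and 8227 CPM in tho2Δ, against 17990, 20380 and 16950 CPM in wild type (−1.08 ± 0.20, edgeR adjusted p = 0.000597), also kept by 6 of 14. Reads of these 3 genes can be confused with a near-identical copy, as can those of 10 of the 30 genes called lower. RPS22B had 464, 453 and 675 CPM in tho2Δ, against 1532, 1484 and 1328 CPM in wild type, and kept its call in 13 of the 14 alternatives. ASC1, the ribosome-bound scaffold protein, had 901, 783 and 1136 CPM in tho2Δ, against 2839, 2295 and 2541 CPM in wild type (−1.44 ± 0.27, edgeR adjusted p = 0.000597), and kept it in 13 as well. RPS22B, ASC1 and RPL7B each overlap a gene on the same strand, and reads of such pairs can be divided by the counting. The medians were −0.79 for 85 ribosomal protein genes with an intron and −0.80 for 46 without. The 108 other intron-containing genes had a median of −0.14 with 1 call, ASC1, beside 1.0% of all genes called lower.

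The phosphate starvation genes had the lowest median of the lists with more than 5 tested members. Of 19 listed genes 11 were tested, 4 fell (PHO84, VTC1, VTC2 and VTC3) and 0 rose, against 1.0% and 0.801% of all genes. The number that fell was 3 under median-ratio factors, 2 under total counts and 4 under DESeq2. The list had a median of −1.78, which is 1.61 to 1.63 below all genes under the 4 scalings, although 3 of the 11 had a log2 fold change above 0. VTC1, part of the vacuolar complex that makes polyphosphate, had 956, 660 and 614 CPM in tho2Δ, against 2635, 3679 and 3061 CPM in wild type (−2.06 ± 0.33, edgeR adjusted p = 0.000245), and kept its call in 13 of 14 alternatives. VTC3, a subunit of the same complex, had 1, 1 and 4 counts in tho2Δ, against 10, 20 and 9 counts in wild type (−2.16 ± 0.58, edgeR adjusted p = 0.0235). VTC2 had 2, 5 and 2 counts in tho2Δ, against 20, 15 and 10 counts in wild type (−1.78 ± 0.51, edgeR adjusted p = 0.0366). The call of VTC3 was kept by 7 of the 14 alternatives (3 of the 6 that left out a library) and that of VTC2 by 5 (2 of 6). VTC4, the catalytic subunit, averaged 223 CPM in tho2Δ and 354 CPM in wild type and did not pass (−0.64 ± 0.43, edgeR adjusted p = 0.592). PHO84, the high-affinity phosphate importer, had 0 counts in every tho2Δ library and 10, 8 and 6 in wild type, at least 5.57-fold lower in tho2Δ with the tho2Δ sum set to a floor of 3 counts. PHO84 overlaps a gene on the opposite strand, and the strand setting of the counting is not given in the sources used here. The list took 0.149%, 0.130% and 0.140% of gene counts in tho2Δ, against 0.361%, 0.375% and 0.358% in wild type, and 0.130% to 0.140% in tho2Δ total RNA and 0.258% to 0.273% in wild type total RNA.

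Pho4, the activator of these genes, binds CACGTG and, more weakly, CACGTT. In the same windows either hexamer, on either strand, was present in 9 of the 11 tested phosphate starvation genes (81.8%), against 15.9% of tested genes and 14.0% of all nuclear coding genes, and at least 2 matches in 3 of the 11, against 1.82% of tested genes. The list was drawn up from genes of this pathway, so its share of sites describes the list and not these libraries. A match was also present in 8 of 23 called higher genes (34.8%) and in 5 of 29 called lower genes (17.2%). VTC1 had none in this window and VTC2 had 1. PHO84 (chrXIII:26001-26300, minus strand) and VTC3 (chrXVI:517219-517518, minus strand) had 3 each and are printed 5′ to 3′ on the strand of the gene with matches in capitals.
PHO84: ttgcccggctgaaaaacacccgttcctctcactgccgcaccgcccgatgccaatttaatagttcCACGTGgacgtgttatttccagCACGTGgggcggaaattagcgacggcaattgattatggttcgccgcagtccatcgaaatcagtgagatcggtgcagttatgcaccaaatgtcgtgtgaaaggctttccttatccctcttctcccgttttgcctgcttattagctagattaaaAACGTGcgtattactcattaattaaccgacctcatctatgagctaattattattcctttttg
VTC3: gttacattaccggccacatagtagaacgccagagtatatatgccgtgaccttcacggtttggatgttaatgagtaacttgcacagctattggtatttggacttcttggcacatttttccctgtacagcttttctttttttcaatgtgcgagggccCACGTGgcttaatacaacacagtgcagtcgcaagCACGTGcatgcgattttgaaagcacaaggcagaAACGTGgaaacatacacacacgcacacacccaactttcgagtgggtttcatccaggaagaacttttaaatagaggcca
In PHO84 the matches ended 431, 409 and 257 bases before the start codon, and this window runs into YML122C and a noncoding RNA gene.

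**Figure D2:**
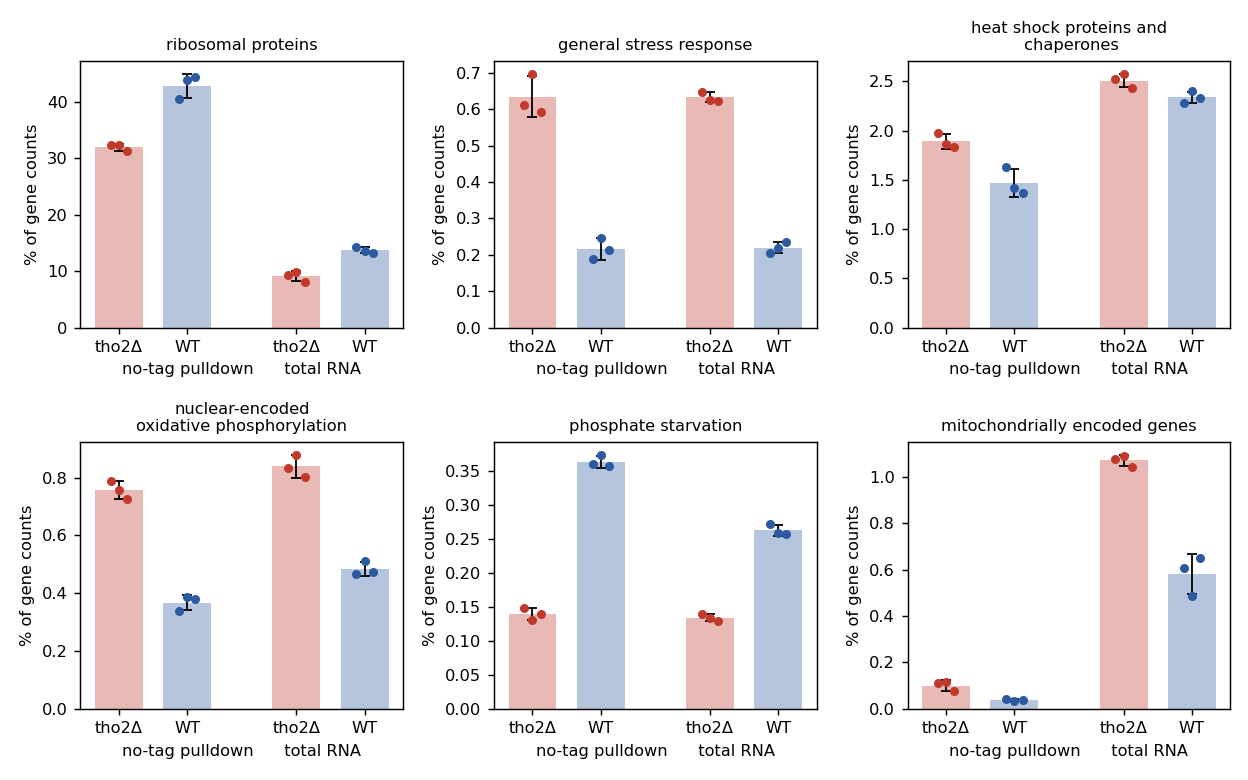
Share of gene counts, in percent, taken by 6 gene lists in each pulldown and each total RNA library; bars are means of 3 libraries, error bars SD, points libraries, tho2Δ left of wild type. The general stress share is 0.594% to 0.698% in tho2Δ pulldowns and 0.188% to 0.246% in wild type pulldowns, and the ribosomal protein share is 31.3% to 32.4% in tho2Δ and 40.5% to 44.3% in wild type.

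Of the other genes that fell, ILV5, an enzyme of branched-chain amino acid synthesis, had 1, 1 and 1 counts in tho2Δ, against 10, 14 and 13 counts in wild type, a ratio of scaled counts of 8.59 for wild type over tho2Δ (exact 95% counting interval 2.72 to 43.6). HXT1, the low-affinity glucose transporter used at high glucose, had 54.6, 124 and 123 CPM in tho2Δ, against 490, 356 and 318 CPM in wild type (−2.01 ± 0.44, edgeR adjusted p = 0.00393). CIS3, a cell wall mannoprotein, had 300.3, 330 and 430 CPM in tho2Δ, against 1062, 1009 and 837 CPM in wild type (−1.46 ± 0.32, edgeR adjusted p = 0.00338). ACS2, a nuclear and cytosolic acetyl-CoA synthetase, and SSU1, the sulfite pump, had 0 counts in tho2Δ and 13 and 12 counts in wild type, at least 3.02-fold and 2.79-fold lower on the floor of 3 counts. The call of ACS2 was kept in 3 of the 6 fits that left out a library, and that of SSU1 in 0. SNR30, a box H/ACA RNA needed for processing of small subunit ribosomal RNA, had 11, 11 and 4 counts in tho2Δ, against 27, 43 and 19 counts in wild type (−1.21 ± 0.34, edgeR adjusted p = 0.0341). It was the only call among 67 snoRNAs tested, whose median was −0.46, beside 1.0% of all genes called lower. Over the amino acid synthesis list 2 of 50 tested genes fell (ILV5 and HIS1) and 0 rose, against 1.0% and 0.801% of all genes. The median of this list was 0.33 below all genes. In glycolysis and fermentation 2 of 18 rose (TDH1 and HXK1, which is also counted in the general stress list) and 0 fell, against 0.801% and 1.0% of all genes. The main isozymes TDH3, ENO2 and PDC1 did not pass the thresholds, with log2 fold changes of −0.09, −0.53 and −0.50.

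Many lists gave no call under TMM, where 0.801% of all genes tested rose and 1.0% fell. These were ribosome biogenesis factors (0 of 54, median −0.28), translation factors (0 of 31, −0.28), aminoacyl-tRNA synthetases (0 of 19, −0.39), nucleotide synthesis (0 of 28, −0.28), the proteasome (0 of 33, −0.05), histones (0 of 10, −0.90), sterol and fatty acid synthesis (0 of 30, −0.34) and the secretory pathway (0 of 34, −0.32), RNA polymerase I and III subunits (0 of 14, −0.61) and MATa-specific genes (0 of 6, −0.54). The mRNP assembly and export factors (0 of 14, −0.35) and the nuclear surveillance and 3′ end factors (0 of 28, −0.18) had no call either. The histone median, over 10 genes, was 0.75 below that of all genes, further than that of the ribosomal proteins (0.64 below). Of the cell wall list 1 of 34 fell (CIS3) with a median of −0.14, and of the DNA damage response list 1 of 8 rose (UBI4, polyubiquitin) with a median of 0.10. Of the plasma membrane transporters 1 of 27 rose (PMA1, the proton pump) and 2 fell (PHO84 and HXT1). These are counts of 1 or 2 genes, beside 0.801% higher and 1.0% lower of all genes tested. A single member was tested of the Ty elements and of the genes deleted in the strain background, and it was not called in either. Among the THO and TREX subunits 0 of 7 tested were called. SUB2, the helicase, had 573, 742 and 829 CPM in tho2Δ, against 633, 772 and 1213 CPM in wild type. YRA1, the second bait, had 6, 0 and 11 counts in tho2Δ and 2, 9 and 11 in wild type, while the sums were 2 counts in tho2Δ and 3 in wild type for HPR1, 3 and 3 for STO1 (Cbp80), and 5 and 5 for IRA2. MDN1 (YLR106C, named REA1 in RefSeq), one of the longest yeast genes, had 0, 1 and 2 counts in tho2Δ, against 11, 7 and 6 counts in wild type, and missed the threshold (−2.45 ± 0.73, edgeR adjusted p = 0.0549). Lists of spliceosomal RNAs (0 of 5, median 0.76) and of genes within 20 kb of a chromosome end (1 higher of 41, HXK1) took larger shares in every tho2Δ library, 0.547% to 0.698% in tho2Δ and 0.363% to 0.433% in wild type for the first list, and 0.507% to 0.568% in tho2Δ and 0.288% to 0.412% in wild type for the other. Such separation was common, since 15 of the 31 lists gave a two-sided exact permutation p of 0.1 in the pulldown.

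**Figure D3:**
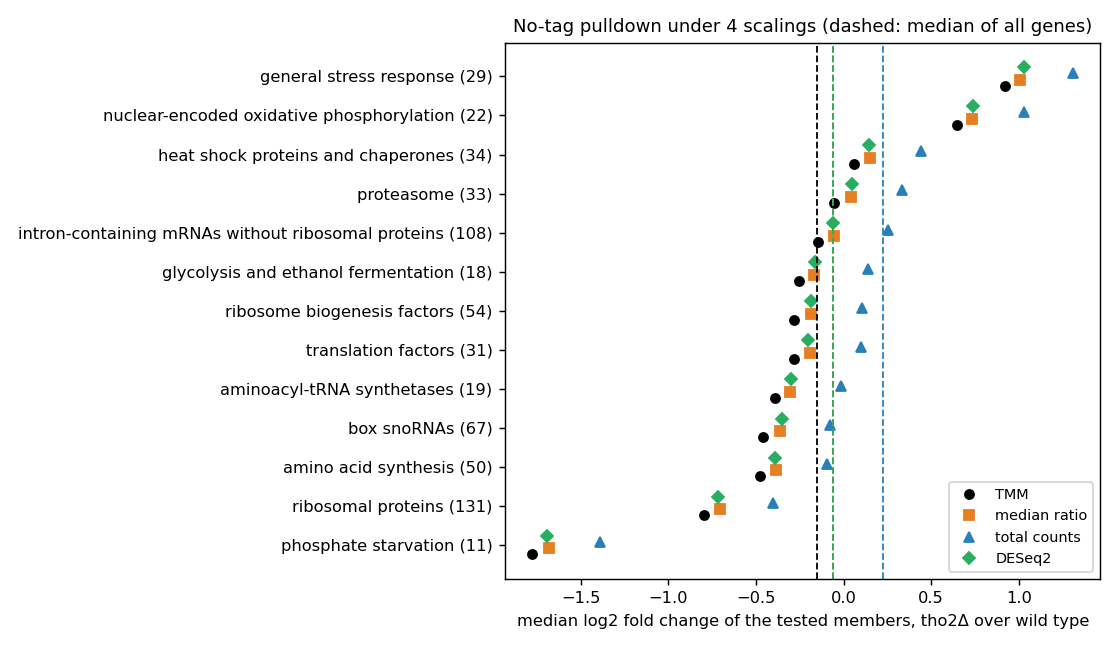
Median log2 fold change, tho2Δ over wild type, of the tested members of 13 gene lists in the no-tag pulldowns under TMM, median-ratio factors, total counts and the DESeq2 test (number of tested genes in brackets); dashed lines are the medians of all genes tested, from −0.15 under TMM to 0.22 under total counts. Scaling shifts every list together. Phosphate starvation (−1.78 under TMM) is lowest and general stress (0.92) highest under each scaling, while lists with close medians between them can change places.

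Fold changes were also set against features of the genes. Over the 505 genes that are nuclear, code for proteins other than ribosomal ones and average 10 or more counts, the median log2 fold change was −0.22 in the shortest 127 (coding length 111 to 510 nt) and −0.19 in the longest 126 (1449 to 8364 nt), with a Spearman's rho of 0.05 across genes in the pulldown and −0.12 in total RNA. Bins of the same size by GC content and by longest run of A had medians between −0.26 and −0.17. Median log2 fold changes by chromosome ran between −0.32 on chromosome VIII and 0.02 on chromosome III. Genes are not independent replicates and these values carry no test.

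The same lysates were compared before pulldown. In total RNA 185 of 4792 genes rose (3.86%) and 58 fell (1.21%), with a median of 0.00 for all genes. Of the 24 genes that rose in the pulldown 23 were tested in total RNA, all 23 had the same sign and 18 were called higher. Of the 30 that fell all 30 had the same sign and 7 were called lower. On the log2 scale HXK1 was at 3.03 ± 0.44 in the pulldown and 3.15 ± 0.17 in total RNA, HSP26 at 2.54 ± 0.36 and 3.10 ± 0.19, VTC1 at −2.06 ± 0.33 and −1.40 ± 0.21, and ASC1 at −1.44 ± 0.27 and −0.73 ± 0.09. A few pulldown calls had little counterpart, such as SOP4, a membrane protein of the endoplasmic reticulum (−2.23 ± 0.56 in the pulldown, −0.16 ± 0.19 in total RNA, with 2, 3 and 1 counts in tho2Δ and 16, 16 and 9 in wild type), and RPS9A (−1.75 ± 0.51 and −0.20 ± 0.23, on 7 counts in tho2Δ and 34 in wild type). The call of SOP4 was kept by 7 of the 14 alternatives and that of RPS9A by 1, and by none of the 6 that left out a library. Read the other way, 99 of the 124 genes called higher in total RNA and tested in the pulldown were above 0 there, and 32 of the 35 called lower were below 0. Of these, 17 of the 17 genes called higher in total RNA with a mean of at least 10 pulldown counts were above 0 in the pulldown too, and 15 of 15 called lower were below 0. The median pulldown change was 0.84 over the 124 genes and −0.85 over the 35, against −0.16 over all genes tested in both. Spearman's rho between both sets of fold changes was 0.39 over all 2856 genes tested in both, 0.31 over the 2215 with a mean under 10 counts, 0.67 over the 641 above that level, and 0.57 over the 524 of these that are not ribosomal proteins. Those points share lysates, and each is a gene and no replicate.

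**Figure D4:**
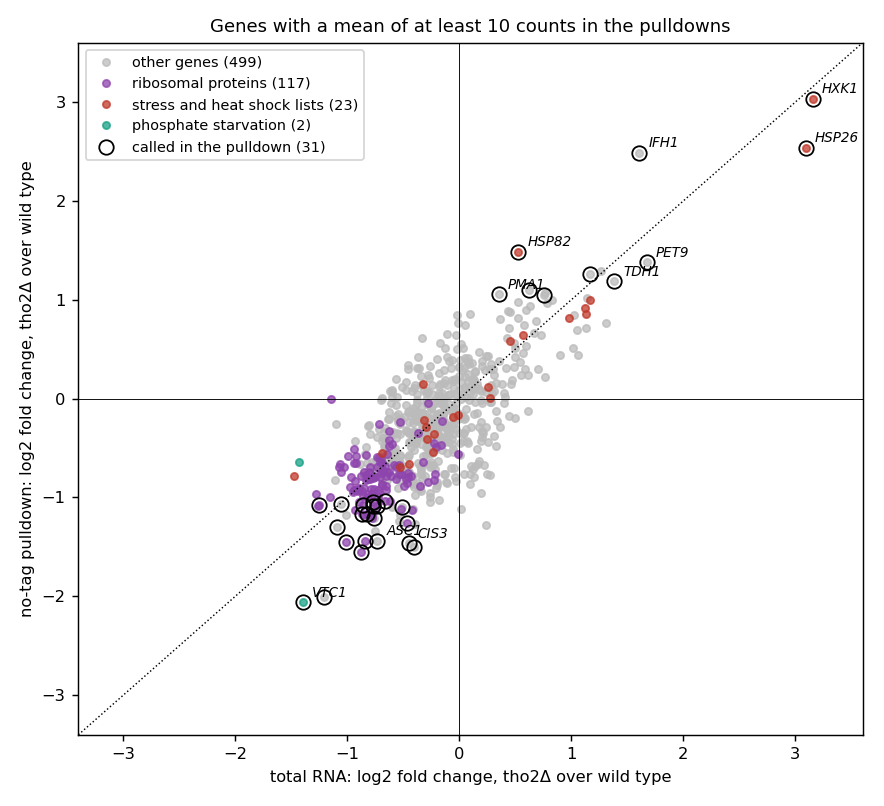
Log2 fold change, tho2Δ over wild type, in the no-tag pulldown (y) and in total RNA (x) for 641 genes with a mean of at least 10 counts in the 6 pulldowns; colours mark gene lists, open circles the 31 called in the pulldown, and the dotted line equal change. HXK1 (3.03 in the pulldown, 3.15 in total RNA) lies near the line and IFH1 (2.49 and 1.61) above it.

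Whether the pulldown changed by more than the lysate was tested as an interaction over the 12 no-tag libraries. At an adjusted p of edgeR under 0.05 and an interaction beyond 1 on the log2 scale 0 of 4305 genes were called (0.00%), with 230 at an unadjusted p under 0.05 and a smallest adjusted p of 0.539. DESeq2 called 1, THO2 itself, which had 0 counts in every pulldown. The interaction of IFH1 was 0.96 ± 0.40, that of HSP82 1.02 ± 0.38, that of CIS3 −0.95 ± 0.34 and that of HXK1 −0.05 ± 0.52. The median SE of 0.84 over all genes tested, and of 0.36 among genes with at least 10 counts, shows how coarse this comparison is. A miss does not show that both materials changed alike. The list medians of the interaction were −0.01 for ribosomal proteins, −0.12 for general stress genes and 0.00 for nuclear-encoded oxidative phosphorylation, against −0.04 for all genes. Lists that lay further off included box snoRNAs at −0.47 (13 of 59 above 0) and mitochondrially encoded genes at −0.38 (9 tested). The DNA damage response was at −0.37, histones at −0.34 and mRNP assembly and export factors at −0.31. Translation factors were at 0.30 and Ty elements at 1.23 (5 tested), with 0 genes called in any of these lists.

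The Cbp80-PrA pulldowns of the series, scored against this background elsewhere in the study, gave 303 higher (10.1%) and 235 lower (7.84%) of the same 2997 genes between tho2Δ and wild type in the same fit. Of the 24 genes that rose without a tag 6 were called higher there and 1, TPS2, lower. Of the 30 that fell 11 were called lower and 1, SSU1, higher. HXK1 was at 3.03 without a tag and 0.78 with Cbp80-PrA, HSP26 at 2.54 and −0.16, IFH1 at 2.49 and 2.11, and VTC1 at −2.06 and −0.76 on the log2 scale. The median of the general stress list was 0.92 without a tag and −0.04 with Cbp80-PrA, and that of the ribosomal proteins −0.79 and −0.53. The 2 comparisons use different libraries and strains, and the difference between them was not tested.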

How the data were processed

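The deposited table held counts, and per the labels and the study's methods the authors made them by extracting and deduplicating molecular identifiers with UMI-tools 1.0.1, trimming with bbduk, removing ribosomal RNA reads with bbsplit, aligning with STAR 2.7.10a to R64 and counting with HTSeq 2.0.2. Gene models had no untranslated regions, so 3′ tag reads beyond the stop codon count as outside genes. A second deposited table (the same counts divided by DESeq2 size factors) was not used. Rows that name no gene stayed out of totals and tests.

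The 15 pulldown and the 15 total RNA libraries were fitted apart, with 1 mean per group, and the interaction over the 12 no-tag libraries, in edgeR 4.0.16 (TMM, filterByExpr, robust quasi-likelihood F test, Benjamini-Hochberg over all genes tested) under R 4.3.3. The code was tested on simulated data. Alternatives were median-ratio factors, total counts, DESeq2 1.42.0, no filter, a mean of at least 10 counts, glmTreat, a replicate block, other libraries in the fit and leaving out each replicate. Adjusted p alone and the summed pair of libraries were added after seeing the data. Shares of lists were compared by exact permutation over libraries. CPM are counts per 1000000 of the TMM-scaled library size. Near-identical copies were found with BLAST 2.17.0 (at least 90% identity over at least 100 nt of coding sequence). Symbols come from RefSeq's annotation of R64. Named genes were, among called coding genes that average 100 CPM or more without overlap of genotypes, the 12 that rose most and the 12 that fell most, up to 3 called members of each list in each direction, the 10 most abundant genes, THO2 with its neighbours, other TREX genes, STO1, IRA2, TAO3 and MDN1; genes outside this rule were named after their values were seen. The comparison and the 31 gene lists were chosen with earlier results of these data known.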

Additional observations from a re-analysis of the deposited data

How the results depend on the processing

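The count of genes that rose in the no-tag pulldown (24) was 52 under total counts, 4 under the test against the fold threshold and 50 with only the 6 no-tag libraries in the fit, where 643 genes were tested. The count that fell (30) was 8 under total counts, 18 under DESeq2 (which gave no adjusted p for 1569 genes), 6 with a mean of at least 10 counts (641 genes tested), 1 under the test against the fold threshold, 8 with only the 6 libraries and 14 with tho2Δ libraries 1 and 2 as 1 library. Leaving out 1 replicate gave 11 to 21 higher and 11 to 33 lower. All 54 kept their sign in every alternative in which they were tested. In total RNA the test against the fold threshold gave 40 higher and 10 lower, adjusted p alone 567 and 490, and leaving out 1 replicate 180 to 198 higher and 44 to 89 lower. The interaction had 0 calls in each edgeR alternative and 1 higher under DESeq2, THO2. With the replicate number as a replicate block the pulldown gave 23 higher and 30 lower, the total RNA 187 and 63, and the interaction 0 (there the block was the lysate). Same-numbered tho2Δ and wild type pulldowns deviated together with correlations of 0.12, 0.03 and 0.08, each library correlated best with its own number, and not every pair passed 0.1, so the numbers were not taken as pairs. Over the 71 named genes that were tested, 665 of 939 alternative values kept their side of the thresholds, 274 kept the direction but not the call, and 0 turned round. Depth limits these results: 1 read was worth 19.8 to 41.2 CPM.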
